A study of Felis catus with 6 samples.

Results

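PLVAP, VWF, PECAM1 and ENG are 4 genes of vascular endothelium, followed here in oral mucosa of cats with feline chronic gingivostomatitis (FCGS). They were taken by name, as 4 of the 21529 Ensembl identifiers in the files and 4 of the 13327 with enough signal to be tested. RNA was sequenced from 3 FCGS lesions and from 3 biopsies of adjacent healthy oral mucosa, 1 of each from the cats Bart, Jerome and Sadie. The healthy mucosa therefore came from diseased cats, and no unaffected animal was sequenced. Per the study, all its cats were free of feline immunodeficiency and leukemia viruses, and FCGS cats received buprenorphine for pain and no immunosuppressive therapy. The labels name the tissue gingival, whereas the study's methods place the biopsies beside the palatoglossal folds.

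Endothelial cells line blood and lymph vessels, and in inflamed mucosa the small veins are where leukocytes leave the blood. PLVAP forms the diaphragms that span endothelial fenestrae and caveolae, and in mice it takes part in permeability and leukocyte passage. PECAM1 (CD31) joins endothelial cells to each other at their borders and is also carried by platelets and many leukocytes. VWF is stored in endothelial granules and in platelets, and after release it tethers platelets to the vessel wall. ENG (endoglin, CD105) is a coreceptor that works with the endothelial receptor ACVRL1 for ligands of the bone morphogenetic protein family. Activated macrophages and stromal cells can carry ENG too.

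The values are FPKM, fragment numbers divided by transcript length and by library size, so levels of different genes can be set side by side. The files carry identifiers without symbols, and the names came from the study's table of genes at least 2-fold different between the tissues. The 6 values of each gene matched exactly 1 identifier, ENSFCAG00000008511 for PLVAP, ENSFCAG00000006861 for VWF, ENSFCAG00000003509 for PECAM1 and ENSFCAG00000001489 for ENG. A gene could therefore only be named if it differed by 2-fold or more, and a fold above that size is no finding about these genes. Tests used limma on log2 FPKM with values below 1 raised to 1, and p-values were adjusted over all 13327 identifiers by Benjamini-Hochberg. As lesion and healthy biopsy were paired by cat, a second fit took the cat as a block. Where a call differs, the adjusted p of that fit is printed for some genes and only its call or a count for others.

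All 4 genes measured higher in the FCGS lesion than in the healthy mucosa of every cat. PLVAP, PECAM1 and ENG rose at an adjusted p under 0.05 in limma, whereas VWF had the largest difference of the 4 and passed with the cat as a block but not without it. Among all identifiers tested, 5.31% were called higher and 6.61% lower in lesions, and 12.2% were called higher with the block. Every lesion lay above every healthy library for all 4 genes, which held for 16.7% of the identifiers tested. Among the 1292 named identifiers higher in lesions, which share the 2-fold limit of the names, 31.5% passed the test and 68.9% passed with the block. The median log2 difference was 2.04 over the 4 genes, 1.61 over those 1292 and -0.07 over all identifiers tested. In bulk tissue, more endothelial cells and more RNA per cell cannot be told apart.

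**Figure D1:**
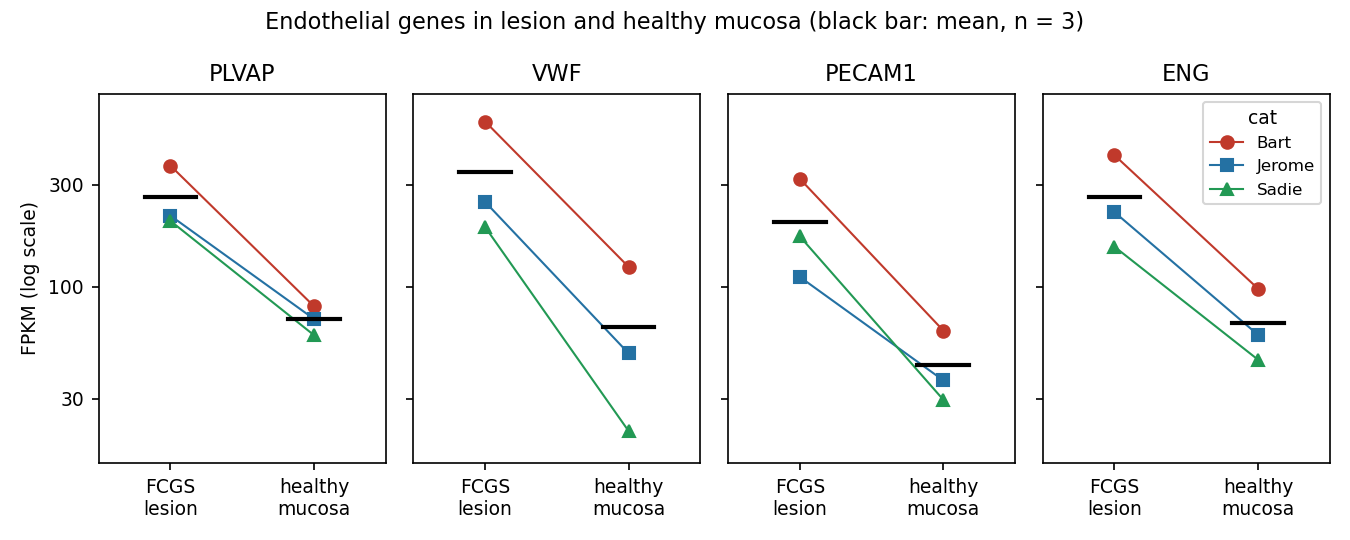
FPKM (vertical axis, log scale) of PLVAP, VWF, PECAM1 and ENG in FCGS lesion and healthy mucosa (horizontal axis), with 1 line per cat and the mean of the 3 libraries as a black bar. For each gene the lowest lesion lies above the highest healthy library, and the cat Bart has the highest value in both tissues.

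PLVAP, the protein of endothelial diaphragms, measured 368 FPKM in the lesion of Bart, 215 FPKM in that of Jerome and 203 FPKM in that of Sadie, against 81.1, 70.7 and 59.4 FPKM in the healthy mucosa of the same cats. The groups did not overlap, and the lowest lesion stood 2.50-fold above the highest healthy library. The healthy libraries were close together, with a 1.36-fold range, and the lesions spread over 1.81-fold. The averages of PLVAP were 262 ± 92.0 FPKM over the lesions and 70.4 ± 10.8 FPKM over the healthy libraries (SD, n = 3 each). The log2 difference was 1.85 (SE 0.28, 95% interval 1.17 to 2.54, adjusted p = 0.023 from limma), with folds of 4.54 in Bart, 3.04 in Jerome and 3.42 in Sadie. The 2-fold limit of the names favours a high tissue share of the sum of squares of log2 FPKM. That share was 68.1% for VWF, 76.8% for ENG, 79.8% for PECAM1 and 90.4% for PLVAP. Its median was 56.3% over the other endothelial receptor and junction genes and 39.4% over the identifiers tested. The cat accounted for 8.08% in PLVAP, against a median of 35.1% over the identifiers tested. The call was lost without the healthy library of Jerome (adjusted p = 0.069 from limma), without the lesion of Sadie (0.085) and without the healthy library of Sadie (0.078). It was kept without either library of Bart (0.035 without the lesion, 0.041 without healthy mucosa) and without the lesion of Jerome (0.045).

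PECAM1, the adhesion molecule of endothelial borders, measured 320 FPKM in the lesion of Bart, 111 FPKM in that of Jerome and 172 FPKM in that of Sadie, against 62.5, 36.6 and 29.7 FPKM in their healthy mucosa. The lesion of Jerome was the lowest of the 3 and still 1.78-fold above the highest healthy library. Means were 201 ± 107 FPKM over lesions and 42.9 ± 17.3 FPKM over healthy libraries (SD, n = 3 each). The log2 difference was 2.17 (SE 0.46, 95% interval 1.04 to 3.29, adjusted p = 0.037 from limma), and the folds were 5.12 in Bart, 3.04 in Jerome and 5.80 in Sadie. PECAM1 was the least abundant of the 4 in the lesions of Bart and Jerome and in the healthy mucosa of those cats. Its call was kept without the lesion of Jerome (adjusted p = 0.047 from limma). It was lost without the lesion of Bart (0.053) or of Sadie (0.11), and without the healthy library of Bart (0.0503), Jerome (0.12) or Sadie (0.11).

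VWF, the platelet-tethering protein of endothelial granules, measured 592 FPKM in the lesion of Bart, 249 FPKM in that of Jerome and 190 FPKM in that of Sadie, against 124, 48.8 and 21.2 FPKM in their healthy mucosa. It was the most variable of the 4, with a 3.11-fold range among lesions and a 5.85-fold range among healthy libraries, where the median identifier spread over 1.65-fold and 1.61-fold. The lowest lesion, that of Sadie, was 1.54-fold above the highest healthy library, that of Bart. Means were 344 ± 217 FPKM over lesions and 64.6 ± 53.1 FPKM over healthy libraries (SD, n = 3 each). The log2 difference of 2.59 (SE 0.73, 95% interval 0.82 to 4.36) did not pass when cats were ignored (adjusted p = 0.068 from limma). With the cat as a block the SE was 0.24, the interval 1.94 to 3.25 and the adjusted p 0.022 from limma. Within cats the folds were 4.78 in Bart, 5.10 in Jerome and 8.98 in Sadie, and the last rests on the low healthy value of Sadie. Without both libraries of Bart, VWF passed the fit without the block as well (log2 difference 2.76, adjusted p = 0.040 from limma). The difference was 1.97 without the healthy library of Sadie and 3.24 without that of Bart.

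ENG, the coreceptor of ACVRL1, measured 412 FPKM in the lesion of Bart, 223 FPKM in that of Jerome and 154 FPKM in that of Sadie, against 98.1, 59.7 and 45.7 FPKM in their healthy mucosa. The cats kept the same order in both tissues, Bart above Jerome above Sadie. The lowest lesion was 1.57-fold above the highest healthy library. Means were 263 ± 134 FPKM over lesions and 67.8 ± 27.1 FPKM over healthy libraries (SD, n = 3 each). The log2 difference was 1.91 (SE 0.45, 95% interval 0.82 to 2.99, adjusted p = 0.046 from limma). The within-cat folds were the most alike of the 4 genes, 4.20 in Bart, 3.74 in Jerome and 3.37 in Sadie. The median share of the sum of squares left to neither tissue nor cat was 11.2% over the identifiers tested. It was 4.03% over the other endothelial receptor and junction genes. The share was 2.76% for PECAM1, 1.69% for VWF, 1.55% for PLVAP and 0.36% for ENG. The call lies close to the threshold: it was lost without any 1 library, with the adjusted p from limma between 0.055 without the healthy library of Bart and 0.13 without that of Sadie, and was also lost at 0.052 with 0.1 FPKM added to every value. It was kept without both libraries of Bart (0.035).

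PLVAP, PECAM1 and ENG lost their calls without Jerome and without Sadie, as did all other identifiers. Without both libraries of Jerome, limma called 0 of the 13327 identifiers (2436 at an unadjusted p under 0.05), and without both libraries of Sadie it also called 0 (2139 unadjusted). They kept them without both libraries of Bart, where 7.77% of identifiers were called higher. With the block and without Bart, chosen after seeing the data, PLVAP, VWF and ENG passed (adjusted p = 0.0496 from limma for each) and PECAM1 did not (0.051). All 4 genes, VWF included, missed the threshold in the fit with the block and without Jerome (adjusted p of 0.056 to 0.059 from limma) and in that without Sadie (0.11). With all cats in the block, the 4 genes share the adjusted p of 0.022 because Benjamini-Hochberg gives tied values to neighbouring ranks.

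In lesions the order of mean levels was VWF, ENG, PLVAP and PECAM1, and in healthy mucosa it was PLVAP, ENG, VWF and PECAM1. The SDs of neighbours overlapped in both orders. All 4 stood among the most abundant transcripts in the lesions, from the top 1.82% (VWF in Bart) to the top 7.39% (PECAM1 in Jerome) of tested identifiers. In healthy mucosa they ranked lower, from the top 6.36% (VWF in Bart) to the top 34.8% (VWF in Sadie). VWF shifted most relative to the other 3. The ratio of VWF to PLVAP was 1.61 in the lesion of Bart, 1.16 in that of Jerome and 0.94 in that of Sadie, against 1.53, 0.69 and 0.36 in their healthy mucosa. The ratio of ENG to PLVAP stayed between 0.76 and 1.12 in lesions and between 0.77 and 1.21 in healthy mucosa.

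The lesion minus healthy differences of the 4 genes were then compared with each other within each cat, over 6 pairs. VWF differed more between the tissues than PLVAP in all 3 cats, by a mean log2 difference of 0.74 ± 0.66 (SD, n = 3; 95% interval -0.90 to 2.38, two-sided exact sign-flip permutation p = 0.25, adjusted p = 0.5 over 6 pairs). It also differed more than ENG in all 3 cats, by 0.68 ± 0.65 (interval -0.93 to 2.29, same p), and more than PECAM1 in 2 of 3, by 0.43 ± 0.46 (exact permutation p = 0.5). ENG and PLVAP were closest to each other, with a mean log2 difference of 0.06 ± 0.22 and an interval of -0.48 to 0.59 (exact permutation p = 1.0). PECAM1 exceeded PLVAP by 0.31 ± 0.40 in the mean, and ENG by 0.26 ± 0.54 (exact permutation p = 0.25 and 0.75). These means lean on Sadie, without whose libraries VWF exceeded PLVAP by 0.41 and ENG by 0.32, and PECAM1 exceeded PLVAP by 0.09 and stood at -0.0069 against ENG. The mean of VWF over PECAM1 was 0.69 without Bart and 0.27 without Jerome, that of PECAM1 over ENG was 0.53 without Jerome, and that of ENG over PLVAP was 0.14 without Bart and -0.07 without Jerome. With 3 cats the smallest p this test allows is 0.25, so no pair could pass, and these intervals do not show that any 2 of the genes changed equally.

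The other named genes of endothelial receptors and junctions were also higher in lesions. Of 26 listed, 17 had a symbol and 3 of these rose, with 15 passing with the cat as a block and 9 without both libraries of Bart. A symbol required a 2-fold difference. Of all named identifiers higher in lesions, 31.5% passed and 68.9% passed with the block. These shares stand beside this count and those of the later lists, and no enrichment was tested. The 328 rows with the strongest falls in the table of names were not used here, so a listed gene that fell strongly could not be counted, here or in the lists that follow. The median log2 difference of the 17 genes was 1.59, between 1.00 for CLEC14A and 2.32 for CDH5. CDH5, VE-cadherin of the endothelial junction, measured 124, 34.0 and 39.1 FPKM in the lesions of Bart, Jerome and Sadie, against 23.4, 7.15 and 7.89 FPKM in healthy mucosa (log2 difference 2.32, adjusted p = 0.073 from limma, 0.022 with the block). Its fold was close to constant over the cats although its level in Bart was far above that in the others. S1PR1, the sphingosine phosphate receptor that stabilizes endothelial junctions, rose by 2.15 in log2 FPKM (SE 0.47, limma adjusted p = 0.039). PLXND1, a semaphorin receptor, rose by 1.59 (SE 0.37, adjusted p = 0.046 from limma). Both kept their calls without both libraries of Bart. With any 1 library left out S1PR1 lost its call (adjusted p of 0.053 to 0.11 from limma), and PLXND1 did in all fits but that without the lesion of Bart (up to 0.14). ROBO4, an endothelial receptor named after its value was seen, rose by 1.63 (SE 0.30, adjusted p = 0.029 from limma), but not when a library of Jerome or Sadie was left out (up to 0.097). MCAM (CD146), shared by endothelium and pericytes, had a log2 difference of 1.91, ESAM one of 1.49 and SHANK3 one of 1.23, and these passed with the block and not without it.

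**Figure D2:**
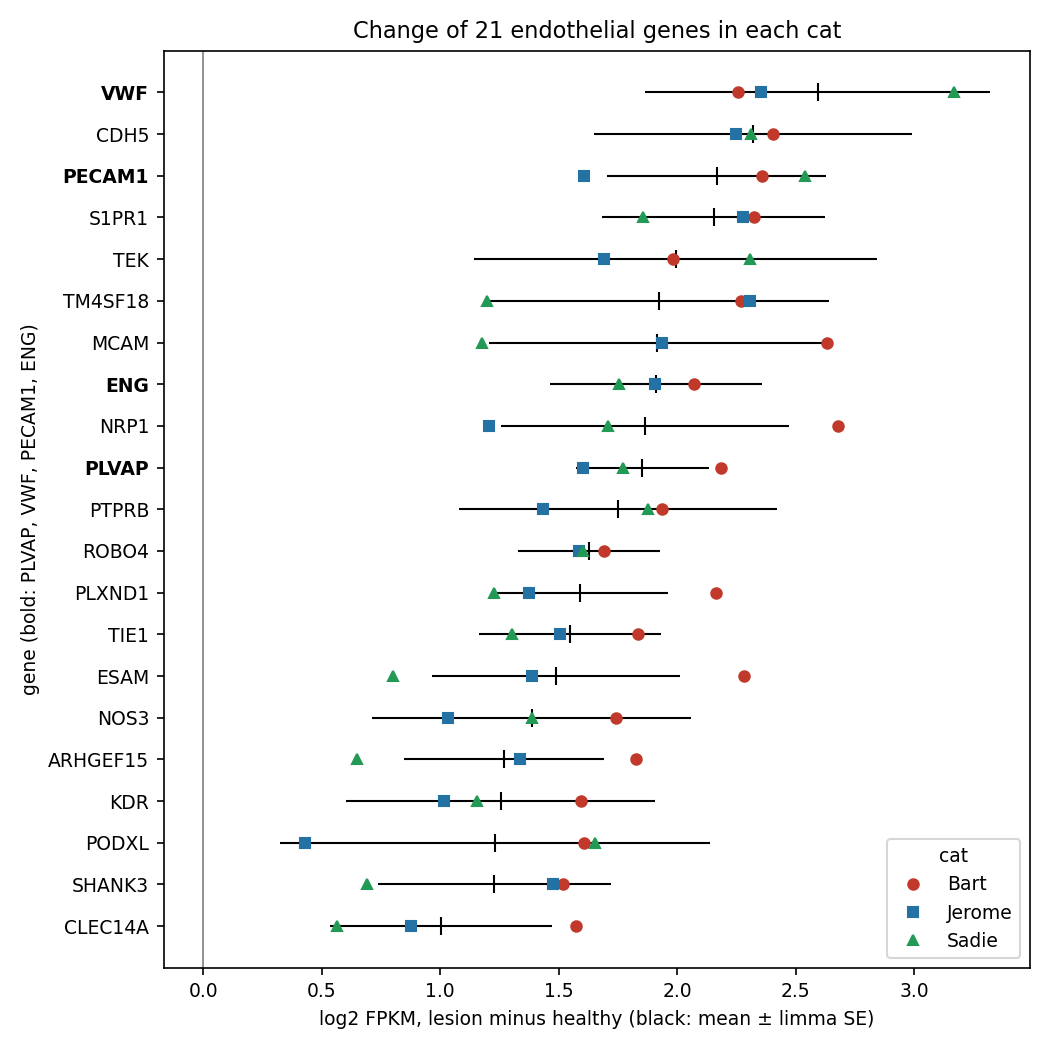
Log2 difference of lesion minus healthy mucosa (horizontal axis) for PLVAP, VWF, PECAM1 and ENG (bold) and 17 other endothelial genes (vertical axis), ordered by their mean, with 1 symbol per cat and the mean with its limma SE in black. All points lie above 0, as the 2-fold limit of the names favours, and VWF in Sadie is the largest of the 4 genes' values, at 3.17.

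The log2 difference of VWF exceeded that of all 17 of these genes, PECAM1 that of 16, ENG that of 12 and PLVAP that of 11. Measured against the mean log2 level of the 17 genes in the same library, all 4 genes were still higher in the lesion than in the healthy mucosa of each cat. In the cats Bart, Jerome and Sadie the remaining log2 difference was 0.18, 0.13 and 0.39 for PLVAP, and 0.07, 0.43 and 0.37 for ENG. It was 0.35, 0.13 and 1.16 for PECAM1, and 0.25, 0.87 and 1.79 for VWF. For PLVAP and ENG these remainders were small beside full differences of 1.85 and 1.91, whereas those of VWF and PECAM1 in Sadie exceeded 1. These are descriptions over genes chosen with the results known, with no test.

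**Figure D3:**
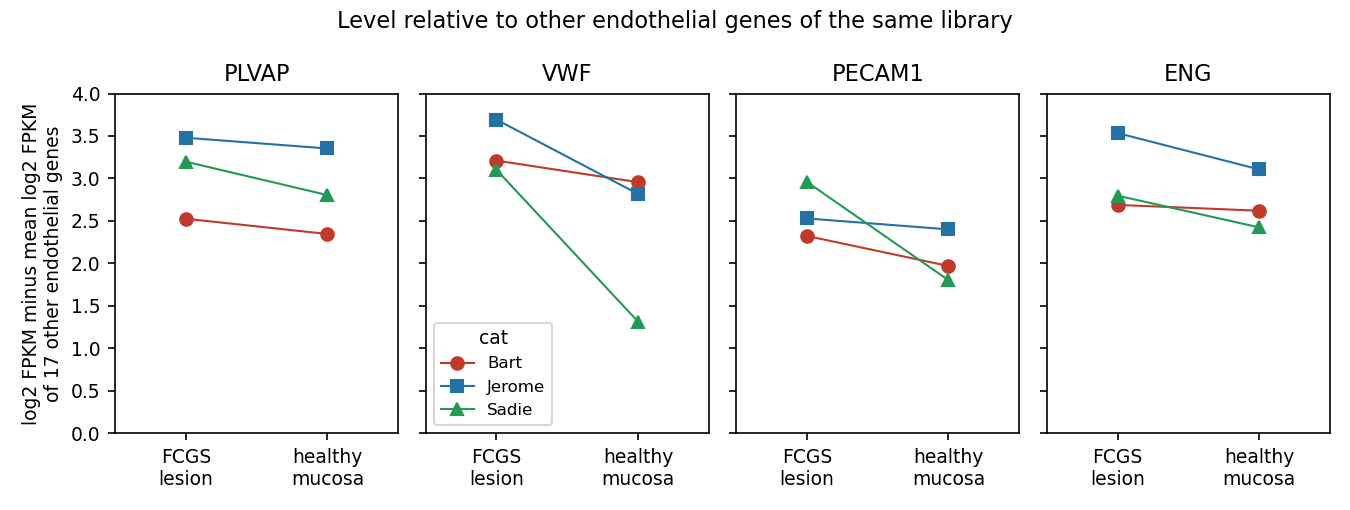
Log2 FPKM of each gene minus the mean log2 FPKM of 17 other endothelial genes of the same library (vertical axis), in lesion and healthy mucosa (horizontal axis), with 1 line per cat. PLVAP and ENG differ between the tissues by at most 0.43, for ENG in Jerome. VWF in Sadie differs the most, at 3.10 in the lesion against 1.31 in healthy mucosa.

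The named genes for transcription factors of endothelium measured higher in lesions too. Of 13 listed, 5 had a symbol and 2 rose, with 4 passing with the block. FLI1, an ETS family factor of endothelial and blood cells, rose by 2.04 in log2 FPKM (SE 0.36, limma adjusted p = 0.027). MEF2C, also active in muscle and B cells, rose by 2.38 (SE 0.31, adjusted p = 0.021 from limma). It measured 20.1, 28.9 and 37.6 FPKM in the lesions of Bart, Jerome and Sadie, against 4.21, 5.85 and 6.24 FPKM in healthy mucosa. FLI1 and MEF2C both lost their calls without the healthy library of Jerome or either library of Sadie (up to 0.10 for FLI1 and 0.085 for MEF2C). ERG, the more endothelial of the ETS factors, measured 36.8, 12.0 and 13.7 FPKM in the lesions of Bart, Jerome and Sadie, against 8.61, 4.58 and 5.77 FPKM in healthy mucosa (log2 difference 1.58, adjusted p = 0.090 from limma, 0.026 with the block). GATA2 at 1.14 missed the threshold in both fits (adjusted p = 0.19 and 0.075 from limma), and ELK3 at 1.07 passed with the block.

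Of 9 listed genes through which endothelium and its surroundings hold or attract leukocytes, 5 had a symbol and 1 rose, and all 5 passed with the block. SELP, P-selectin, which shares its storage granules with VWF, measured 329, 99.8 and 48.0 FPKM in the lesions of Bart, Jerome and Sadie, against 68.3, 14.9 and 4.64 FPKM in healthy mucosa. Its healthy library of Bart lay above its lesion of Sadie, and its log2 difference of 2.80 did not pass without the block (adjusted p = 0.15 from limma, 0.022 with it). VCAM1, the ligand of leukocyte integrin ITGA4, had a log2 difference of 2.48, ICAM1 one of 1.38 and ACKR1, the chemokine-binding receptor of venules, one of 1.58. With all cats each passed with the block and not without it, and VCAM1 also passed without both libraries of Bart (2.56, adjusted p = 0.032 from limma). CXCL12, a chemokine of stromal and endothelial cells, rose by 1.65 (SE 0.28, adjusted p = 0.026 from limma), or 1.35 without both libraries of Bart (0.055), and with 1 library left out it was called in 2 of 6 fits (up to 0.098).

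Of the named genes of the endoglin pathway, ACVRL1, TGFBR2, TGFB3 and SMAD6 measured higher in lesions. ID1 measured lower and was called in neither fit. Of 19 listed genes 5 had a symbol and 1 rose, with 4 rising with the block. ACVRL1, the endothelial type I receptor that works with ENG, measured 70.6, 46.4 and 49.9 FPKM in the lesions of Bart, Jerome and Sadie, against 28.0, 20.0 and 18.2 FPKM in healthy mucosa, without overlap (log2 difference 1.34, SE 0.26, adjusted p = 0.032 from limma). It was not called without 1 library of Jerome or Sadie (up to 0.11). TGFBR2, the type II receptor of TGF-beta, had a log2 difference of 1.84, the ligand TGFB3 one of 1.76 and the inhibitory SMAD6 one of 1.47, each past the test with the block and not without it. ID1, a transcriptional target of bone morphogenetic proteins that epithelial cells also express, measured 93.1, 67.5 and 107 FPKM in lesions, against 448, 124 and 183 FPKM in healthy mucosa. Its groups did not overlap either, with every lesion below every healthy library as for 21.9% of the identifiers tested, and its log2 difference of -1.30 missed the threshold (adjusted p = 0.13 from limma, 0.070 with the block).

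Around VWF, 13 genes of hemostasis were listed, and of the 6 with a symbol none passed without the block (2 at an unadjusted p under 0.05) and 5 passed with it. THBS1, a matrix protein also released by platelets, measured 515, 29.8 and 24.1 FPKM in the lesions of Bart, Jerome and Sadie, against 32.8, 6.51 and 1.58 FPKM in healthy mucosa. Its healthy library of Bart overlapped the lesions of the other cats. PLAU, its receptor PLAUR and TFPI, the inhibitor of tissue factor, had log2 differences of 2.71, 2.45 and 1.99. F3, tissue factor, which squamous epithelium also makes, went the other way, with 125, 60.5 and 52.3 FPKM in lesions, against 114, 484 and 890 FPKM in healthy mucosa (log2 difference -2.32, adjusted p = 0.11 from limma, 0.13 with the block). Without both libraries of Bart, F3 was called lower, at -3.54 (adjusted p = 0.032 from limma).

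Since platelets carry VWF and PECAM1, genes of the platelet lineage were read beside them. ITGA2B, a platelet integrin, measured 97.8, 5.41 and 1.41 FPKM in the lesions of Bart, Jerome and Sadie, against 10.4, 1.43 and 2.07 FPKM in healthy mucosa. TUBB1, the platelet tubulin, and TREML1 had the same order in the lesions, and the 3 genes summed to 172, 8.67 and 3.07 FPKM in lesions, against 16.9, 2.70 and 2.77 FPKM in healthy mucosa. None of the 3 passed in limma in either fit, and 0 had an unadjusted p under 0.05. The part of platelets in the levels and differences of VWF and PECAM1 was not tested.

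Genes of the vessel wall outside the endothelium were higher in lesions as well. Of 10 mural cell genes 6 had a symbol and 1 rose, with 5 passing with the block. That gene was TAGLN, a smooth muscle protein that myofibroblasts share, with 1084, 303 and 324 FPKM in the lesions of Bart, Jerome and Sadie, against 123, 54.8 and 96.6 FPKM in healthy mucosa (log2 difference 2.45, adjusted p = 0.047 from limma). With 1 library left out, TAGLN was called only without the lesion of Bart (otherwise up to 0.13). PDGFRB, the pericyte receptor, had a log2 difference of 1.60, ACTA2 one of 2.07, MYH11 one of 1.73 and RGS5 one of 3.25. With all cats these passed with the block and not without it, and without both libraries of Bart RGS5 (3.08, adjusted p = 0.032 from limma) and PDGFRB (1.20, 0.038) passed as well. RGS5 measured 0.21 and 0.85 FPKM in the healthy mucosa of Jerome and Sadie, both raised to 1. Without Bart its healthy values were therefore identical, and its differences and that p-value depend on the floor. LMOD1, a smooth muscle protein, was at -1.01 and passed neither fit, but was called lower without both libraries of Bart (-2.85, adjusted p = 0.042 from limma). Of 9 genes of the vessel basement membrane 7 had a symbol, and none passed without the block (4 at an unadjusted p under 0.05), 6 with it and 6 without both libraries of Bart. COL4A1 and COL4A2, the collagen chains of that membrane, had log2 differences of 2.54 and 2.50, LAMB1 one of 1.80, LAMA4 one of 1.76, HSPG2 one of 1.74 and NID1 one of 1.03.

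The cat Bart had the highest levels of the 4 genes in both tissues, and of nearly all of the 17 other endothelial receptor and junction genes. Its lesion was the highest of the 6 libraries for all 4 genes and all 17 other endothelial genes, as for 24.0% of the identifiers tested and 53.9% of the named identifiers higher in lesions. Its healthy library was the highest of the healthy ones for all 4 and for 16 of the 17, against 37.3% of the identifiers tested. This was not particular to them. The lesion of Bart was also highest for all 7 named basement membrane genes, all 4 vascular growth factors and all 3 arterial and tip cell genes. The same held for 5 of 6 mural cell genes, and for 4 of 5 genes in both the leukocyte adhesion and the transcription factor list. Some genes of the other endothelial lists did not follow. ACKR1 was highest in the lesion of Jerome, and GJA4 was lowest in Bart among the healthy libraries. MEF2C and MMRN1 were lowest in Bart in both tissues. The 12 named leukocyte genes summed to 668, 1148 and 1758 FPKM in the lesions of Bart, Jerome and Sadie, against 104, 325 and 202 FPKM in healthy mucosa. CD79A, a B cell receptor chain, made up most of the sum in the lesion of Sadie, with 1114 FPKM. The other 11 genes, summed without it after seeing the data, gave 516, 701 and 643 FPKM in lesions, against 92.5, 239 and 172 FPKM in healthy mucosa, again lowest in Bart. Of the 12, 7 rose (11 with the block), 2 were highest in the lesion of Bart (PTPRC and ITGAM) and 0 had their highest healthy value in Bart. ITGB2, the beta chain of leukocyte integrins, measured 151, 154 and 133 FPKM in lesions, against 16.7, 47.4 and 29.2 FPKM in healthy mucosa. The part of leukocytes, which can carry PECAM1 and ENG, in the differences of these genes was not tested.

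Biopsies also differed in muscle and epithelium. The 9 named skeletal muscle genes summed to 19.0, 4493 and 3740 FPKM in the lesions of Bart, Jerome and Sadie, against 3.20, 12.9 and 1965 FPKM in healthy mucosa, and none passed in limma (0 at an unadjusted p under 0.05). The part of muscle content in the differences of the 4 endothelial genes was not tested. KRT4, a keratin of mucosal epithelium, measured 8.99, 2534 and 569 FPKM in lesions, against 2089 FPKM in the healthy mucosa of Bart, and was listed at 0 in the healthy libraries of Jerome and Sadie. COL17A1, of the basal epithelial layer, had a log2 difference of -2.25 (limma adjusted p = 0.038) and TGM5, of the outer layers, one of -2.38 (limma adjusted p = 0.026). TGM5 measured 0.08, 0.42 and 0.56 FPKM in the lesions of Bart, Jerome and Sadie, all raised to 1. The size of its difference and its p-value therefore depend on the floor. Without both libraries of Bart neither of these 2 passed (COL17A1 at -1.72, adjusted p = 0.10 from limma, and TGM5 at -2.11, 0.057), whereas KRT4, with both remaining healthy libraries at 0, was called higher (adjusted p = 0.032 from limma). Other listed keratins carried no symbol, so the share of epithelium in each biopsy was not measured.

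**Figure D4:**
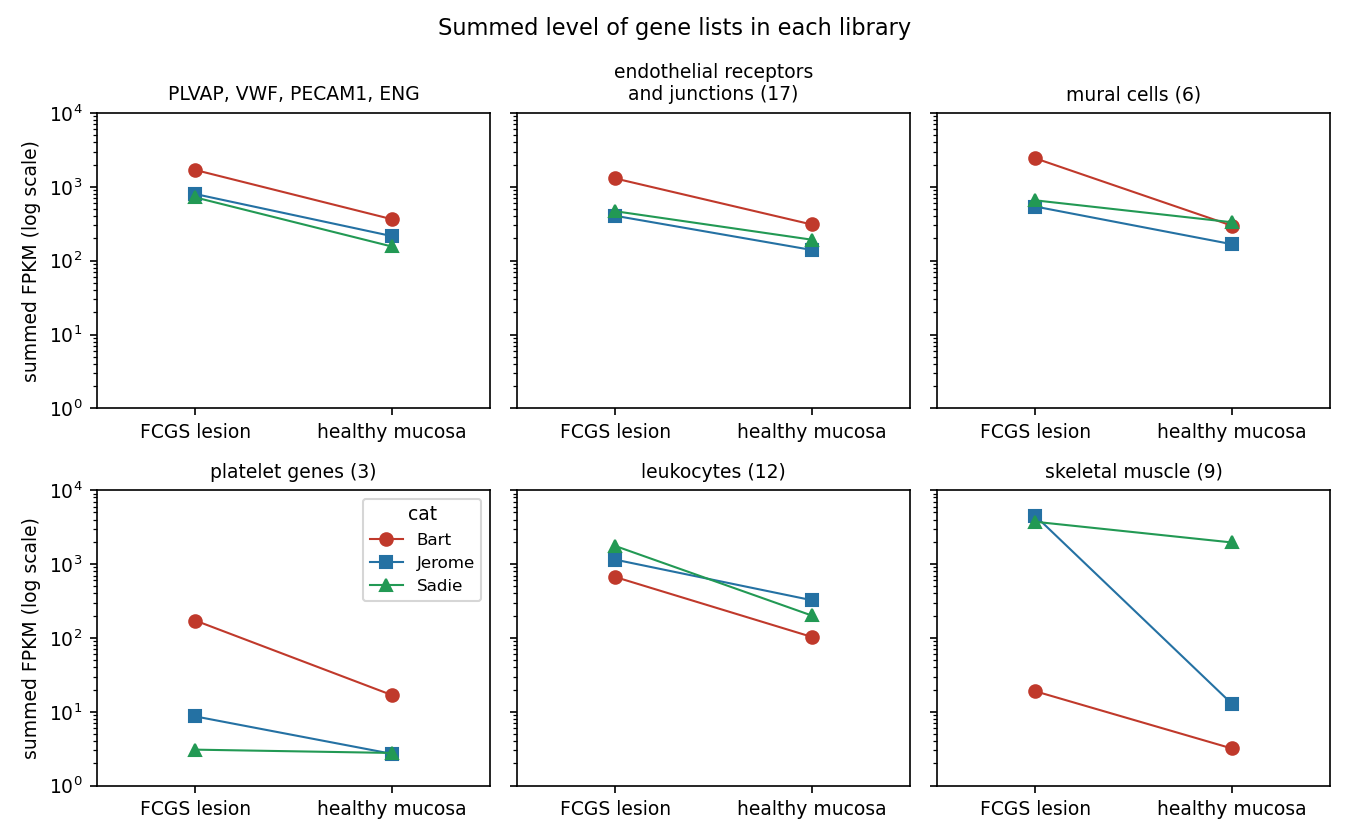
Summed FPKM (vertical axis, log scale) of PLVAP, VWF, PECAM1 and ENG and of 5 gene lists (number of named genes in brackets) in lesion and healthy mucosa (horizontal axis), with 1 line per cat. Bart is highest for the 4 genes, the other endothelial genes and the platelet genes, and lowest for leukocytes and skeletal muscle.

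Finally, the named identifiers with the most similar pattern were sought for each gene, by the root mean square difference of centred log2 FPKM over the 6 libraries. Closest to PLVAP were TCF4 (0.07), a transcription factor of many cell types, ELMO1 (0.10), which takes part in cell engulfment and migration, and FAM167B (0.11). Closest to ENG were MEOX1 (0.05), a homeobox factor, SRPX2 (0.12) and CXorf36 (0.16). PECAM1 was most like GJA5 (0.20), a connexin of arterial endothelium, XPNPEP2 (0.20) and EDNRA (0.21), an endothelin receptor of smooth muscle. VWF had less similar neighbours, OLFML2B (0.23), CD200 (0.25) and MMP19 (0.25). Among the 4 genes PLVAP and ENG were most alike (0.27) and PLVAP and VWF least (0.75). Up to 5 identifiers without a symbol lay closer than the genes given here, and 6 libraries from 3 cats allow many close matches.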

How the data were processed

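The authors deposited 1 file per library with FPKM made by Cuffnorm for 21529 Ensembl identifiers, each with status OK. Per the submitters' processing notes, bcl2fastq, HISAT and Cufflinks came before Cuffnorm. Versions, genome build and annotation were not given in the sources used here. The labels give single reads of 50 bp and the paper paired reads. Read numbers are not in the files. The commonest step ratio of values under 0.1 FPKM put the scaling of the libraries within 1.67-fold of the lesion of Sadie. Only 6.31% to 16.8% of the genes with such values had that ratio, so the scaling is a rough estimate. Without gene lengths whole reads were not recovered, and no counting interval is given. FPKM summed to 1382122 to 1903773 per library.

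Symbols came from 1981 rows of the study's supplementary table, whose values, floored at 1 and to 5 significant digits, each matched 1 identifier (1929 named; 328 rows with the strongest falls not used here). The authors' fold changes there were not used. Values under 1 FPKM were raised to 1 and log2 taken. The filter kept 13327 identifiers that reached 1 FPKM in 3 or more of the 6 libraries, and the two-sided test was limma 3.58.1 (R 4.3.3, mean-variance trend, Benjamini-Hochberg), with tissue as the only term; the step was tested on simulated data. Python 3.11.15, pandas 2.3.3, numpy 2.4.6, scipy 1.17.1 and matplotlib 3.10.9 did the rest. The p-values rest on 3 cats.

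The labels give the same animal for both biopsies, which pairs the libraries. Deviations from the tissue means correlated across genes at 0.49 (Bart), 0.20 (Jerome) and 0.41 (Sadie) within a cat, and at -0.44 to 0.27 between cats. The lesion of Jerome correlated more with the healthy library of Sadie (0.27) than with its own, so for Jerome the pairing rests on the labels.

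The 4 genes and the lists were chosen with earlier results of these data known. Named are the 4 genes, in each list up to 6 with the highest mean FPKM (all with a symbol in the endoglin and hemostasis lists), any member past the test against its list, and the 3 nearest patterns; ROBO4 and CLEC14A were added after their values were seen. A gene of the hemostasis list is counted but not reported here. No listed gene of caveolae had a symbol. Alternatives were the block, pseudocounts of 0.1 and 1, both filters, quantile and median scaling, no trend, and each library or cat left out.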

Additional observations from a re-analysis of the deposited data

How the results depend on the processing

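The difference of PLVAP, VWF, PECAM1 and ENG was positive under every alternative run. Without a filter on low values limma called 526 identifiers in place of 1588, and PLVAP (log2 difference 1.85, adjusted p = 0.0501), PECAM1 (2.17, adjusted p = 0.092) and ENG (1.91, adjusted p = 0.11) lost their calls. ENG also lost its call with 0.1 FPKM added (1.91, adjusted p = 0.052) and without the mean-variance trend (1.91, adjusted p = 0.051). With the cat as a replicate block 3098 identifiers were called, and VWF gained a call at 2.59 (adjusted p = 0.022); the block changed no other call among the 4. Quantile and median scaling changed none.

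Leaving out a library or a cat, with or without the block, gave 0 to 2136 calls. The log2 difference then ranged from 1.58 to 2.01 for PLVAP, 1.97 to 3.24 for VWF, 1.76 to 2.53 for PECAM1 and 1.53 to 2.24 for ENG. Without the block, PLVAP kept its call in 4 of the 9 fits, PECAM1 in 2 and ENG in 1, and VWF gained one in 1. The cause of the losses was not tested. Without the lesion of Bart the platelet genes ITGA2B (-0.18), TUBB1 (-0.25) and TREML1 (-0.10) changed sign, and without the lesion of Sadie they were highest, at 2.87, 2.60 and 2.13. The fit without the lesion of Bart kept the healthy library of Bart, the highest healthy one for each of these genes. Without both libraries of Bart they stayed positive, at 0.68, 0.49 and 0.18. Of 101 other genes compared, 58 gained and 1 lost a call with the block, and 16 lost theirs without a filter. With 3 cats and no read counts, a missed threshold does not show an equal level.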

Other observations

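Of 11 listed genes of arteries and sprouting tip cells 3 had a symbol, and 1 passed without the block: GJA4, a connexin of arterial endothelium, rose with 57.8, 29.6 and 32.7 FPKM in the lesions of Bart, Jerome and Sadie, against 9.70, 10.6 and 13.2 FPKM in healthy mucosa (log2 difference 1.79, adjusted p = 0.027 from limma; with 1 library left out it was called in 2 of 6 fits, with adjusted p up to 0.094). GJA5 (2.10) and DLL4 (1.15), a Notch ligand of tip cells, passed with the cat as a block and not without it, and GJA5 also passed without both libraries of Bart (1.96, adjusted p = 0.032 from limma). Of 8 genes of lymphatic endothelium 4 had a symbol, and STAB1, a scavenger receptor that macrophages share, rose by 1.66 (adjusted p = 0.024 from limma; called in 3 of 6 fits with 1 library left out, up to 0.095). LYVE1, the hyaluronan receptor of lymphatic vessels, measured 92.1, 23.8 and 20.2 FPKM in lesions, against 17.7, 4.52 and 5.06 FPKM in healthy mucosa, and passed with the block and not without it (adjusted p = 0.022 and 0.11 from limma), as did NRP2 (1.88) and MMRN1 (1.01). Without both libraries of Bart, LYVE1 passed too (2.19, adjusted p = 0.032 from limma).

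Of 9 vascular growth factors 4 had a symbol, and none passed without the block (3 at an unadjusted p under 0.05). VEGFC, which acts on lymphatic vessels, measured 41.9, 25.6 and 21.1 FPKM in lesions, against 18.9, 11.3 and 12.8 FPKM in healthy mucosa (log2 difference 1.01, adjusted p = 0.10 from limma, 0.031 with the block). PDGFB, which recruits pericytes, had a log2 difference of 1.96 and ANGPTL2 one of 1.98, each past the test with the block, and ANGPTL4 at 1.33 passed neither fit. LUM, the only listed fibroblast gene with a symbol, measured 400, 135 and 160 FPKM in lesions, against 107, 71.4 and 35.7 FPKM in healthy mucosa. Like PLVAP, VWF, PECAM1 and ENG, it was highest in Bart in both tissues.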
